A study of Macaca fascicularis with 86 samples.

Results

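The genes described here are 8 components of the NODAL signalling pathway, NODAL, GDF3, TDGF1, ACVR1B, ACVR2B, SMAD2, SMAD3 and FOXH1, taken by name from the 17023 genes of an expression table of gastrulating crab-eating macaque embryos. All 8 were in the table and all 8 passed the filter on low values, together with 15216 genes in all. The samples were 86 small regions cut by laser from cryosections, with 5 to 50 cells a region, and sequenced from polyadenylated RNA (Geo-seq, a spatial transcriptome method for few cells). At embryonic day 20 (E20) 1 embryo gave 36 regions from 7 sections. At embryonic day 18 (E18) embryo 1 gave 15 regions from 4 sections and embryo 2 gave 35 regions from 6 sections. The labels give no treatment or genotype, name the tissue only as embryo, number the sections and the sectors within a section, and say neither at which end the numbering starts nor which germ layer a region holds. Values are in TPM (transcripts scaled to a common library total), which are scaled for transcript length, so levels of different genes can be set side by side. Read counts cannot be had from them, so the sequencing depth is unknown and a value of 0 is given below only as listed at 0.

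NODAL and GDF3 are secreted ligands of the transforming growth factor beta family. They act through a complex of a type II receptor such as ACVR2B and a type I receptor such as ACVR1B, for which the membrane-bound co-receptor TDGF1 (Cripto) is needed by NODAL. The receptors phosphorylate SMAD2 and SMAD3, which enter the nucleus with SMAD4 and act on target genes with DNA-binding partners such as FOXH1. In mouse and other vertebrate embryos the pathway is known for inducing the primitive streak, mesoderm and endoderm and for maintaining itself through a FOXH1-dependent enhancer of NODAL.

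The E20 regions were of 2 kinds, and levels and stage differences at E20 are given for each. In the 28 regions of E20 sections 1 to 5, the mean log2(TPM + 1) of 10 hypoblast and yolk sac endoderm markers had a median of 9.83 (range 2.23 to 11.1), and all 10 markers had a median of at least 1 TPM. In the 8 regions of sections 6 and 7 the median was 0.551, and in both E18 embryos it was 1.48. The 7 epiblast markers measured had median levels of 1.92 in E20 sections 1 to 5, 5.61 in sections 6 and 7, 5.67 in E18 embryo 1 and 5.77 in E18 embryo 2, with SOX2, NANOG, L1TD1 and DPPA5 at a median of 0 TPM in the first of these. The 9 markers of primitive streak and nascent mesoderm and the 6 of amnion were all at a median of 0 TPM there. Genes at a TPM of at least 1 had a median of 9051 per region at E20 (8452 in sections 1 to 5 and 10522 in sections 6 and 7), 10564 in E18 embryo 1 and 12186 in E18 embryo 2. Of the constitutive genes ACTB, GAPDH and HPRT1, the first 2 were listed at 0 in 0 regions and HPRT1 in 6.

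**Figure D1:**
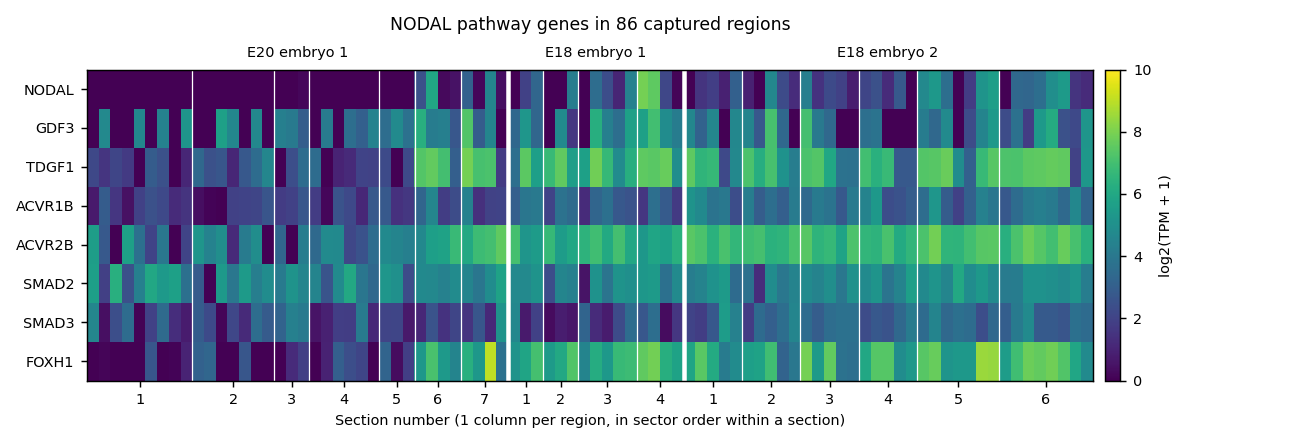
Level of the 8 NODAL pathway genes as log2(TPM + 1) in each of 86 regions, 1 column a region, ordered by embryo, section and sector; thin white lines part sections and thick ones embryos. NODAL and FOXH1 are dark across E20 sections 1 to 5, where NODAL reached at most 0.138 TPM, while SMAD2 and GDF3 are seen in all 3 embryos.

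NODAL, the first of the ligands, reached 1 TPM in 41 of 86 regions. It had a lowest, median and highest TPM of 0, 0 and 61.3 at E20, 0, 3.36 and 242 in E18 embryo 1, and 0, 3.27 and 47.4 in E18 embryo 2. It reached 1 TPM in 4 of 36 E20 regions, 10 of 15 regions of E18 embryo 1 and 27 of 35 of E18 embryo 2. Across E20 sections 1 to 5 it was listed at 0 in 27 of 28 regions, and the remaining one held 0.138 TPM. The E20 regions with NODAL therefore lay in sections 6 and 7, with 4.58, 61.3, 0.179 and 0.390 TPM in sectors 1 to 4 of section 6 and 7.64, 0.130, 22.3 and 0.308 TPM in sectors 1 to 4 of section 7. All 8 of these values lay within the E18 range. In E18 embryo 1 the last section held the 2 highest values of all 86 regions, 242 TPM in sector 1 and 182 TPM in sector 2, beside 3.36 and 0.114 TPM in sectors 3 and 4 of the same section. In E18 embryo 2 the highest values were 47.4 TPM in section 5 sector 7, 42.8 TPM in section 6 sector 6 and 39.1 TPM in section 5 sector 2. In section 4 of E18 embryo 1, single sectors thus differed more than the median levels of the 2 E18 embryos did.

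Outside E20 sections 1 to 5, the level of NODAL went with primitive streak markers and with node and definitive endoderm markers. The latter were FOXA2, SOX17, GSC, CHRD, NOTO, HHEX and CER1. The mean log2(TPM + 1) of these 7 genes was 6.77 in E20 section 6 sector 2, and 6.64 and 7.09 in the 2 leading regions of E18 embryo 1. Over regions, the Pearson correlation of NODAL with this list was 0.95 over the 8 regions of E20 sections 6 and 7, 0.92 over the 15 of E18 embryo 1 and 0.64 over the 35 of E18 embryo 2. With the primitive streak list it was 0.86, 0.89 and 0.77 in the same order. With the hypoblast and yolk sac endoderm list it was 0.85, 0.50 and 0.22, over list levels of at most 1.23 in E20 sections 6 and 7. In E18 embryo 2 a region with 47.4 TPM of NODAL had a streak list level of 7.06 and a node list level of 3.74, whereas one with 42.8 TPM had 6.68 and 7.44. With the epiblast list the correlation was 0.09, 0.13 and 0.27. In E20 sections 1 to 5, where 1 region alone had NODAL above 0, it was 0.02 with the node list, 0.53 with the streak list and 0.29 with the epiblast list. These correlations describe regions that share an embryo, and they carry no test. In mixed tissue of this kind a lower level can come from fewer cells that express a gene or from less RNA per cell, which cannot be told apart.

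GDF3, the other ligand, had a different distribution. Its lowest, median and highest TPM were 0, 11.7 and 155 at E20, 0, 18.9 and 125 in E18 embryo 1, and 0, 9.46 and 133 in E18 embryo 2. It reached 1 TPM in 24 of 36, 13 of 15 and 27 of 35 regions. The 3 ranges overlapped almost wholly, and no order of the embryos stood beyond the spread of their regions. In E20 sections 1 to 5, where NODAL was listed at 0 in 27 of 28 regions, GDF3 reached 1 TPM in 17 of 28, with a median of 11.1 TPM and a highest value of 50.0 TPM. In sections 6 and 7 it reached 1 TPM in 7 of 8 regions, with a median of 18.2 TPM. Within sections 1 to 5 its level went with the yolk sac endoderm list (r = 0.63, n = 28) and against the extraembryonic mesenchyme list (r = -0.51). The region of section 3 sector 1 held the highest yolk sac list level, 11.1, with 19.1 TPM of GDF3. Section 2 sector 7, with the lowest list level of 2.23, had GDF3 listed at 0. Section 1 sector 8 was an exception, with a list level of 10.6 and GDF3 listed at 0. Its correlation with the epiblast list was 0.81 in E20 sections 6 and 7 and 0.74 in E18 embryo 2, but -0.20 in E20 sections 1 to 5 and 0.37 in E18 embryo 1. In E18 embryo 1 it was 0.52 with the node list and 0.45 with the streak list, and section 2 sector 1, with an epiblast list level of 6.66, had GDF3 listed at 0. The top value of E20, 155 TPM in section 7 sector 1, came with an epiblast list level of 6.25.

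The 2 ligands overlapped only in part. At a threshold of 1 TPM, GDF3 was present without NODAL in 20 of 36 E20 regions, 3 of 15 regions of E18 embryo 1 and 4 of 35 of E18 embryo 2, and 17 of the E20 regions lay in sections 1 to 5. GDF3 was the higher of the pair in 54 of 86 regions, NODAL in 17, and both were listed at the same value in 15. In the NODAL-rich regions the order varied: E20 section 6 sector 2 had 61.3 TPM of NODAL and 17.4 TPM of GDF3, while E18 embryo 1 section 4 sector 2 had 182 and 125 TPM. Activin subunits, which signal through the same receptors, had low medians. Those of INHBA were 0, 0.509 and 1.17 TPM in E20, E18 embryo 1 and E18 embryo 2 regions, and those of INHBB 0, 0 and 0.519 TPM. INHBA reached 1 TPM in 33 of 86 regions and INHBB in 16. In E20 sections 1 to 5 INHBA reached it in 5 of 28 regions, with a highest value of 16.7 TPM, and INHBB in 1. In E20 sections 1 to 5 the median of INHBA was 0 TPM and in sections 6 and 7 it was 0.103 TPM, and that of INHBB was 0 TPM in both. The ligand GDF1, the co-receptor CFC1 and the antagonists LEFTY1 and LEFTY2 were not in the table under these names, so their levels could not be read.

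**Figure D2:**
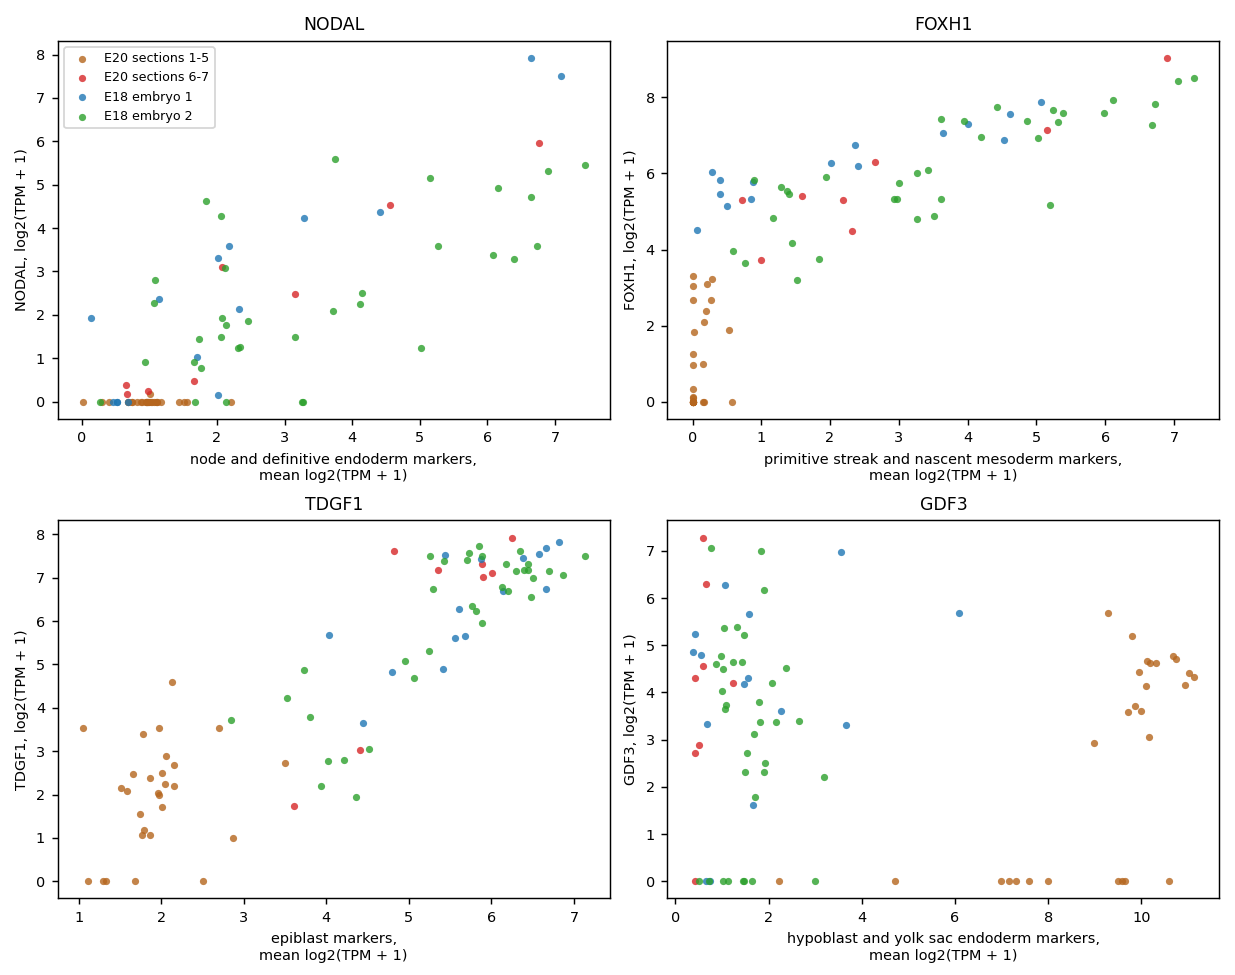
Level of NODAL, FOXH1, TDGF1 and GDF3 in each region, as log2(TPM + 1), against the mean log2(TPM + 1) of 1 cell type marker list each; points are regions, coloured by embryo and, for E20, by section. NODAL and FOXH1 are high at high node and streak marker levels, TDGF1 is high at high epiblast marker levels, and GDF3 is present at both ends of the yolk sac marker range.

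TDGF1, the co-receptor, was broadly present wherever epiblast markers were. Its lowest, median and highest TPM were 0, 3.97 and 242 at E20, 11.6, 103 and 227 in E18 embryo 1, and 2.87, 107 and 210 in E18 embryo 2. Within E20 the median was 3.32 TPM in sections 1 to 5 (highest 23.0) and 140 TPM in sections 6 and 7. The E20 median was below both E18 medians, and the medians of sections 6 and 7 and of the E18 embryos lay close together within wide, overlapping ranges. TDGF1 went with the epiblast list in E20 sections 6 and 7 (r = 0.87), E18 embryo 1 (0.77) and E18 embryo 2 (0.82), and against the extraembryonic mesenchyme list (-0.80, -0.81 and -0.90). In E20 section 6 sector 4 and section 7 sector 4, with mesenchyme list levels of 7.92 and 8.46, it stood at 7.14 and 2.35 TPM. Within E20 sections 1 to 5 the sign was the other way, with r = 0.67 for the mesenchyme list and -0.61 for the yolk sac list, over values of at most 23.0 TPM.

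The co-receptor was more widespread than the ligand that needs it. NODAL reached 1 TPM in 41 regions, and TDGF1 and FOXH1 each reached it in all 41. Both also reached it in all 50 E18 regions and in all 8 regions of E20 sections 6 and 7. NODAL reached it nowhere else, so this overlap was fixed by the spread of TDGF1 and FOXH1. TDGF1 was present without NODAL in 39 regions, 26 at E20 (22 of them in sections 1 to 5), 5 in E18 embryo 1 and 8 in E18 embryo 2. The TPM of TDGF1 exceeded that of NODAL in 78 of 86 regions. The 3 regions with more NODAL than TDGF1 lay in E18 embryos, among them the 2 leading regions of embryo 1, where TDGF1 stood at 183 and 172 TPM.

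Of the receptors, the type II receptor ACVR2B was the more abundant. Its lowest, median and highest TPM were 0, 19.9 and 188 at E20, 36.5, 62.9 and 133 in E18 embryo 1, and 54.9, 125 and 232 in E18 embryo 2. In E20 sections 1 to 5 the median was 13.2 TPM (highest 50.9) and 26 of 28 regions lay below the lowest E18 region. In sections 6 and 7 the median was 85.99 TPM, and 7 of 8 regions lay within the E18 range. E20 sections 1 to 5 therefore stood apart from E18 with little overlap, while sections 6 and 7 did not. The type I receptor ACVR1B had 0, 2.81 and 23.3 TPM at E20, 1.33, 7.21 and 15.3 TPM in E18 embryo 1, and 2.84, 13.0 and 39.1 TPM in E18 embryo 2, and these ranges overlapped. Within E20 its median was 2.62 TPM (highest 6.42) in sections 1 to 5 and 3.53 TPM (highest 23.3) in sections 6 and 7. ACVR2B exceeded ACVR1B in 78 of 86 regions, in 28 of 36 at E20 and in all 50 at E18, with a median log2 ratio of TPM + 1 of 1.75, 3.42 and 3.13 in E20, E18 embryo 1 and E18 embryo 2. The 8 E20 regions with more ACVR1B all lay in sections 1 to 5, where the median ratio was 1.69, while in sections 6 and 7 it was 4.20.

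ACVR2A, the related type II receptor, ran the other way within E20. It had a lowest, median and highest TPM of 17.6, 38.0 and 88.0 in E20 sections 1 to 5 and 2.25, 8.90 and 14.4 in sections 6 and 7, against 1.54, 8.95 and 15.95 in E18 embryo 1 and 5.36, 12.6 and 33.6 in E18 embryo 2. ACVR2A exceeded ACVR2B in 25 of 28 regions of E20 sections 1 to 5, and ACVR2B exceeded ACVR2A in all of the other 58 regions. Whether the turned order followed the yolk sac list level over regions was not tested, and the regions given next are single examples. In E20 section 2 sector 7, with the lowest list level of 2.23, ACVR2A had 27.3 TPM and ACVR2B was listed at 0, whereas section 5 sector 3, with a level of 9.87, had 17.6 TPM of ACVR2A and 19.1 TPM of ACVR2B. The alternative type I receptor ACVR1C was low, with medians of 0, 0 and 3.03 TPM in E20, E18 embryo 1 and E18 embryo 2 regions, and of 0.0555 and 0 TPM in E20 sections 1 to 5 and 6 to 7.

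**Figure D3:**
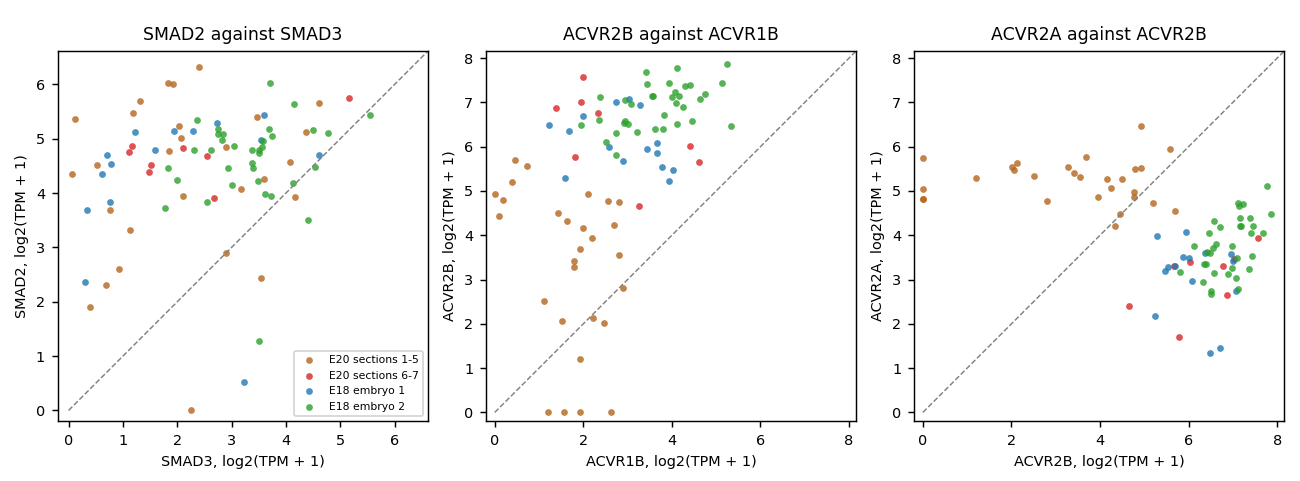
Paired levels, as log2(TPM + 1), of SMAD2 and SMAD3, of ACVR2B and ACVR1B, and of ACVR2A and ACVR2B in each region; the dashed line marks equal levels. SMAD2 lay above SMAD3 in 77 of 86 regions, ACVR2B above ACVR1B in 78, and ACVR2A above ACVR2B in 25, all of them in E20 sections 1 to 5.

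SMAD2, the first of the transducers, had close medians in the 3 embryos. Its lowest, median and highest TPM were 0, 23.6 and 78.7 at E20, 0.430, 24.96 and 42.5 in E18 embryo 1, and 1.43, 26.7 and 63.8 in E18 embryo 2. Its median was 22.3 TPM in E20 sections 1 to 5 and 25.2 TPM in sections 6 and 7, so the regions without NODAL had SMAD2 at a like level. SMAD3, the other receptor-activated SMAD, had 0.0506, 3.16 and 34.6 TPM at E20, 0.240, 2.01 and 23.4 TPM in E18 embryo 1, and 2.44, 10.2 and 45.6 TPM in E18 embryo 2. Within E20 its median was 3.16 TPM (highest 23.2) in sections 1 to 5 and 2.58 TPM (highest 34.6) in sections 6 and 7. SMAD2 exceeded SMAD3 in 32 of 36 E20 regions, 14 of 15 of E18 embryo 1 and 31 of 35 of E18 embryo 2, with median log2 ratios of TPM + 1 of 2.16, 3.08 and 1.30. The ratio was 1.95 in E20 sections 1 to 5 and 2.82 in sections 6 and 7. SMAD3 went with extraembryonic mesenchyme markers (r = 0.64 in E20 sections 6 and 7, 0.45 in E20 sections 1 to 5, 0.54 and 0.58 in E18 embryos 1 and 2). It went against epiblast markers outside E20 sections 1 to 5 (-0.76 in E20 sections 6 and 7, -0.73 and -0.62 in E18 embryos 1 and 2), and within them r was -0.09. Its highest values, 34.6 TPM in E20 section 7 sector 4 and 45.6 TPM in E18 embryo 2 section 1 sector 4, came with mesenchyme list levels of 8.46 and 9.07. NODAL stood at 0.308 and 0.873 TPM in those 2 regions. SMAD4, the partner that both share, had medians of 2.60, 4.29 and 11.1 TPM in E20, E18 embryo 1 and E18 embryo 2 regions, with 1.12 TPM in E20 sections 1 to 5 and 4.37 TPM in sections 6 and 7.

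FOXH1, the DNA-binding partner, had the widest range of the 8 genes. Its lowest, median and highest TPM were 0, 1.97 and 525 at E20, 21.8, 72.6 and 234 in E18 embryo 1, and 8.19, 58.9 and 363 in E18 embryo 2. In E20 sections 1 to 5 the median was 0.170 TPM and the highest value 8.95 TPM, below each of the 8 regions of sections 6 and 7, whose lowest was 12.1 TPM and whose median was 39.99 TPM. Of the 28 regions of sections 1 to 5, 26 lay below the lowest E18 region. The top value of all regions, 525 TPM in E20 section 7 sector 3, coincided with a streak list level of 6.90, and the next, 363 and 341 TPM in E18 embryo 2 section 5 sectors 6 and 7, with levels of 7.30 and 7.06. FOXH1 went with the streak list in E20 sections 6 and 7 (r = 0.91), E18 embryo 1 (0.92) and E18 embryo 2 (0.83), and with NODAL (0.80, 0.83 and 0.62). In E20 sections 1 to 5 these were 0.26 with the streak list and 0.13 with NODAL. It remained above 8 TPM in every E18 region, the 9 listed at 0 for NODAL included. In RefSeq's annotation (assembly T2T-MFA8v1.1) FOXH1 overlaps KIFC2, and the use of strand in counting is not stated, so their reads may be mixed. KIFC2 had medians of 0 TPM in E20 sections 1 to 5, 6.90 TPM in sections 6 and 7, 4.73 TPM in E18 embryo 1 and 8.24 TPM in E18 embryo 2, and its correlation with FOXH1 was -0.02 in E20 sections 1 to 5, -0.06 in sections 6 and 7, 0.33 in E18 embryo 1 and 0.24 in E18 embryo 2.

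**Figure D4:**
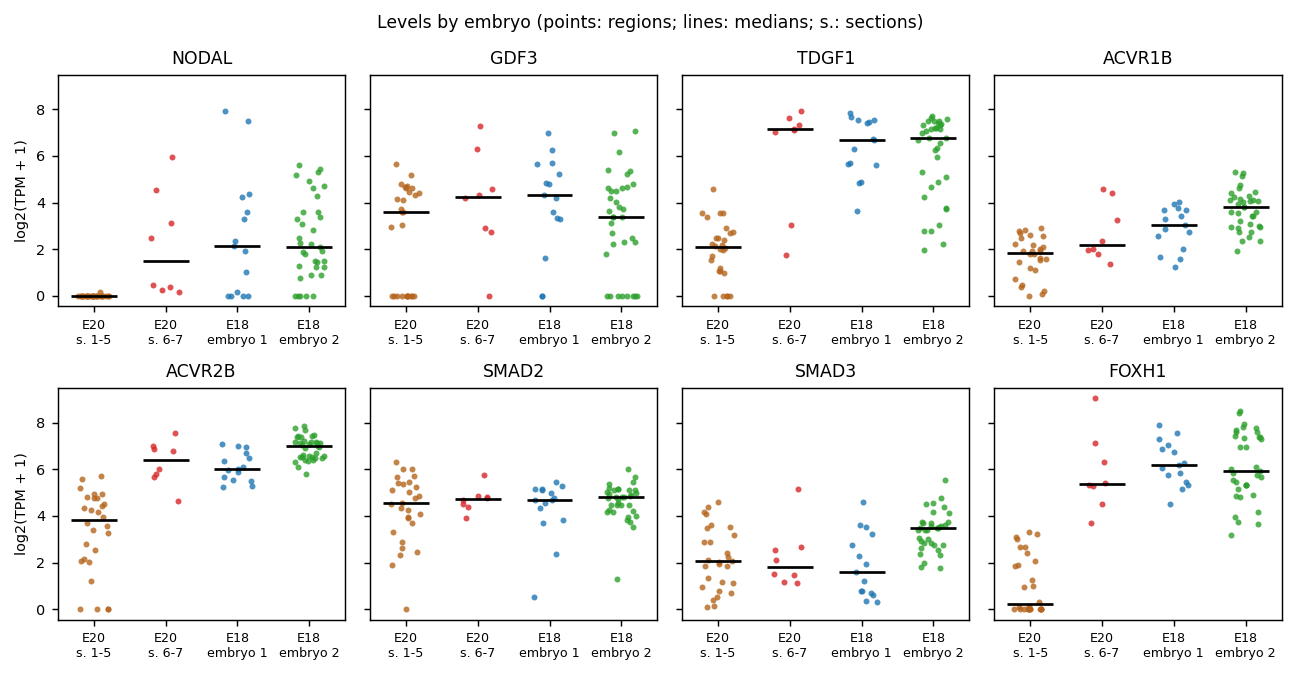
Level of each of the 8 genes in every region, as log2(TPM + 1), for E20 sections 1 to 5 (28 regions), E20 sections 6 and 7 (8), E18 embryo 1 (15) and E18 embryo 2 (35), with lines at medians. FOXH1 in E20 sections 1 to 5 lies wholly below E20 sections 6 and 7, while SMAD2 medians lie between 22.3 and 26.7 TPM in all 4.

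Taking the pathway as a set, all 8 genes reached 1 TPM together in 33 regions, 4 of 36 at E20, 6 of 15 in E18 embryo 1 and 23 of 35 in E18 embryo 2. This was so in 0 of 28 regions of E20 sections 1 to 5, which follows from NODAL alone, below 1 TPM in all of them. The median number of the 8 genes at 1 TPM or more was 5 there. For all 17023 genes of the table that median was 8452. A receiving set of ACVR1B, ACVR2B and SMAD2 was found together in 75 regions, 18 of them among those 28. By median TPM the order in E20 sections 6 and 7 was TDGF1, ACVR2B, FOXH1, SMAD2, GDF3, ACVR1B, SMAD3 and NODAL. In E18 embryo 1 it differed in the places of ACVR2B and FOXH1 and of SMAD3 and NODAL. In E18 embryo 2 ACVR2B came first, and NODAL was again last. Ranges of neighbours in these orders overlapped.

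The comparison of stages set the mean log2(TPM + 1) of the E20 embryo against those of the 2 E18 embryos, with limma over 15216 genes. FOXH1 was lower at E20 by -4.07 ± 0.44 (SE; adjusted p = 1.91e-17), with embryo means of 2.13 at E20 and 6.26 and 6.13 in E18 embryos 1 and 2. TDGF1 was lower by -3.28 ± 0.43 (adjusted p = 1.41e-11), with means of 2.87 at E20 and 6.37 and 5.93 at E18. ACVR2B was lower by -2.53 ± 0.42 (adjusted p = 3.17e-07), with means of 3.98 at E20 and 6.11 and 6.91 at E18. These were 3 of the 8 genes, while 11.4% of all genes tested were called, 8.75% lower and 2.64% higher. With medians over regions in place of means, limma called 0 of the 8 and 0 of all genes (3 of the 8 at an unadjusted p under 0.05), with differences of -4.51 for FOXH1 (adjusted p = 0.374), -4.41 for TDGF1 (0.374) and -2.10 for ACVR2B (0.383). NODAL differed by -2.02 ± 0.78 (limma adjusted p = 0.0754) and ACVR1B by -1.38 ± 0.63 (adjusted p = 0.154), neither of which passed. The NODAL call was gained, with an adjusted p of 0.0466 at the lowest, when E18 embryo 1 section 3 sector 1 or E20 section 6 sector 2 was left out. GDF3 (-0.66 ± 0.56), SMAD3 (-0.45 ± 0.69) and SMAD2 (-0.09 ± 0.46) did not pass, and those of SMAD3 and SMAD2 turned to 0.27 and 0.054 after quantile normalization. The median over all genes was -0.44, and relative to it FOXH1 stood at -3.63, TDGF1 at -2.83 and ACVR2B at -2.09. With 1 E20 embryo and 1 residual degree of freedom, the spread is that between the 2 E18 embryos, pooled over genes.

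The 2 kinds of E20 section were also compared with E18 separately, beginning with sections 1 to 5. Set alone against E18, these sections gave -5.13 ± 0.45 for FOXH1, -4.20 ± 0.44 for TDGF1, -3.19 ± 0.42 for ACVR2B and -2.50 ± 0.80 for NODAL (limma adjusted p = 0.0129 for NODAL), so that 4 of 8 genes were lower, beside 14.9% of all genes tested. Sections 6 and 7 alone gave -0.36 ± 0.43 for FOXH1, -0.04 ± 0.43 for TDGF1, -0.22 ± 0.43 for ACVR2B and -0.33 ± 0.72 for NODAL. None of the 8 genes was called there by limma (0 at an unadjusted p under 0.05), beside 0.0263% of all genes called lower and 0.0131% higher. The yolk sac and epiblast marker levels given above divide the E20 sections in the same way, and the choice of sections followed from them. The comparison of sections 1 to 5 alone, here and for the pathway list below, was chosen after seeing the data.

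**Figure D5:**
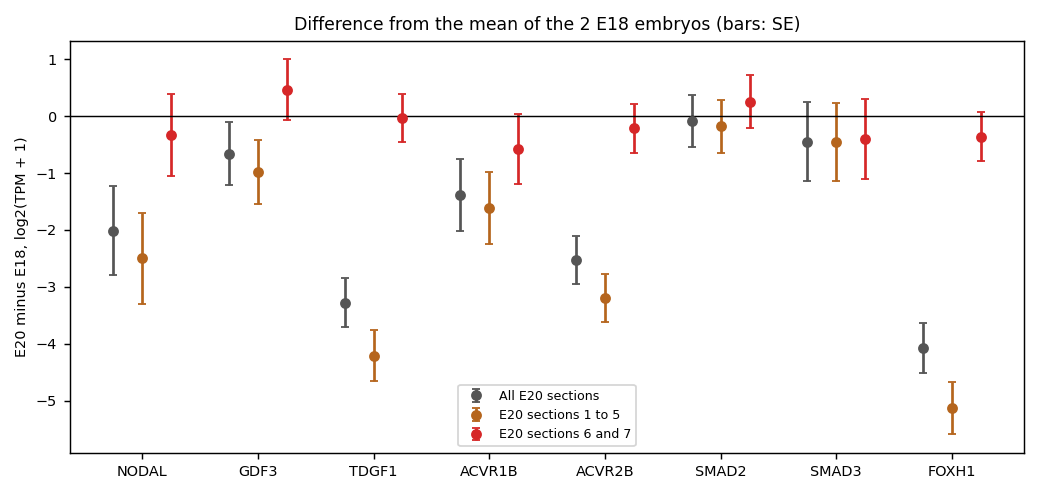
Difference in mean log2(TPM + 1) between E20 and the 2 E18 embryos for each gene, for all E20 sections, sections 1 to 5 and sections 6 and 7; bars are SE and the line marks no difference. FOXH1, TDGF1 and ACVR2B lie from -5.13 to -2.53 with all sections or with sections 1 to 5, and from -0.36 to -0.04 with sections 6 and 7.

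Between the E18 embryos no test is possible, since each is 1 embryo. Embryo 2 minus embryo 1 was 1.47 on the log2(TPM + 1) scale for SMAD3, 0.80 for ACVR2B and 0.78 for ACVR1B. It was -0.84 for GDF3, -0.45 for TDGF1, -0.13 for NODAL and FOXH1 and 0.31 for SMAD2, beside a median of 0.41 over all genes tested.

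Along the section numbers, with the first section of an embryo set to 0 and its last to 1, 4 of the 8 genes rose in the model with embryo as a block. FOXH1 rose by 2.90 ± 0.47 on the log2(TPM + 1) scale (SE; limma adjusted p = 3.23e-05), TDGF1 by 2.10 ± 0.54 (0.00711), NODAL by 2.09 ± 0.49 (0.00321) and ACVR2B by 1.54 ± 0.38 (0.00541). Of all genes tested 10.7% were called, 8.81% rising and 1.89% falling. GDF3 had a slope of 1.31 ± 0.64 (adjusted p = 0.182), SMAD2 of 0.41, ACVR1B of 0.19 and SMAD3 of 0.08, and none of these 4 passed. Regions of an embryo are not independent, so these p-values are too small. With section means as the units 1 of the 8, NODAL, was called. Without the E20 embryo, or with its 2 kinds of section as separate blocks, 0 of the 8 were called by limma (2 at an unadjusted p under 0.05 in each).

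Slopes were also fitted for each embryo. NODAL had slopes of 2.06 at E20, 2.75 in E18 embryo 1 and 1.82 in E18 embryo 2 (moderated F test for a difference between embryos, limma adjusted p = 0.919). FOXH1 had 5.23 at E20, 0.68 in E18 embryo 1 and 1.56 in E18 embryo 2, and ACVR2B had 3.52, 0.01 and 0.26. The slopes differed between embryos for these 2 of the 8 genes (adjusted p = 0.00304 for FOXH1 and 0.00234 for ACVR2B), beside 10.1% of all genes tested. TDGF1 had 3.79, 1.03 and 0.89 (adjusted p = 0.165). In E20 the sections with low section numbers were those with high yolk sac markers. Without the E20 embryo the slope of NODAL was 2.11 (adjusted p = 0.465), that of FOXH1 1.29 and that of ACVR2B 0.18.

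Across the sectors of a section, whose order the labels do not define, TDGF1 fell by 1.71 ± 0.45 on the log2(TPM + 1) scale from the first to the last sector (SE; limma adjusted p = 0.0213), with slopes of -0.80 at E20, -0.59 in E18 embryo 1 and -3.28 in E18 embryo 2. It was 1 of the 8 genes, where 3.24% of all genes tested were called, 0.762% falling and 2.48% rising. In E18 embryo 2 the first and last sectors of section 1 held 180 and 24.8 TPM, and those of section 4 held 126 and 5.85 TPM, with mesenchyme list levels of 1.74 and 6.65 and of 1.82 and 7.81. Section 5 went the other way, with 158 TPM in the first and 170 TPM in the last sector and mesenchyme list levels of 2.17 and 2.44, while in the other 5 sections the first sector held more. Without E18 embryo 2 the slope was -0.73 (adjusted p = 0.788), and its adjusted p was 0.0501 without E20 section 6 sector 4. NODAL (-0.17), FOXH1 (-0.60), GDF3 (-0.70), ACVR2B (-0.49), SMAD2 (0.65), SMAD3 (0.37) and ACVR1B (-0.01) did not pass. The sector slopes of 0 of the 8 genes differed between embryos (F test, limma; 1 at an unadjusted p under 0.05, TDGF1), beside 0.48% of all genes.

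The rest of the pathway was read from a list of 28 genes, 24 of which were in the table and tested. For the stage 9 of 24 were lower at E20, beside 8.75% of all genes tested. The list median was -1.40, beside -1.70 for the 8 genes and -0.44 for all genes. The largest differences among those lower were the streak and endoderm regulators EOMES (-3.51), LHX1 (-3.21) and MIXL1 (-2.51), the secreted antagonist CER1 (-2.65) and the corepressors TGIF1 (-2.49) and TGIF2 (-2.23). With sections 1 to 5 alone 13 of 24 were lower, beside 14.9% of all genes, and ACVR2A was higher (1.80 ± 0.48, limma adjusted p = 0.00219), beside 4.65% of all genes called higher. With sections 6 and 7 alone 0 were called by limma (1 at an unadjusted p under 0.05, MIXL1). In sections 6 and 7 MIXL1 was the higher at E20, by 1.56 ± 0.47. EOMES (0.62), CER1 (0.27) and TGIF1 (0.34) also stood above 0 there, and LHX1 (-0.39) and TGIF2 (-0.95) below it. PMEPA1, GSC and TBXT, which respond to the pathway, were listed at 0 in all 28 regions of sections 1 to 5. Other genes of the list were present there: FOXA2 reached 1 TPM in 20 of these regions, SMAD7 in 26 and SKIL in 24. MIXL1 reached it in 4, and EOMES and LHX1 in 3 each.

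Along the sections 9 of the 24 rose and 0 fell (list median 0.54, beside 1.43 for the 8 genes and 0.11 for all genes), where 8.81% of all genes rose and 1.89% fell. They were MIXL1 (4.32), CER1 (4.24), LHX1 (3.96), EOMES (3.38), the organiser gene GSC (3.03) and the node and endoderm factor FOXA2 (3.02) as the largest, with TBXT (2.46), TGIF1 (1.76) and PMEPA1 (0.88). With section means as the units limma called 6 of the 24, without EOMES, TGIF1 and PMEPA1, and without the E20 embryo, or with its 2 kinds of section as separate blocks, it called GSC and FOXA2 alone. Several of them are also among the streak and node markers used above. The section slopes of ACVR2A differed between embryos, with -2.10 at E20, 0.81 in E18 embryo 1 and 0.11 in E18 embryo 2 (F test, limma adjusted p = 0.000647), as did those of TGIF1 and TGIF2.

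Genes whose levels were most like those of a member were sought over all 86 regions, with each embryo centred on its mean. For NODAL they were KHDC3L (r = 0.86), FGF17 (0.83), GSC (0.81), PDYN (0.80) and DKK4 (0.80). TDGF1 was most like ZIC2 (0.89), CA11 (0.88), NFE2L3 (0.85), OTX2 (0.85) and TULP1 (0.82), and FOXH1 most like CRABP2 (0.82), DPYSL4 (0.81), CA11 (0.79), ZIC2 (0.79) and DPPA5 (0.79). They thus shared ZIC2 and CA11 among their 5, while NODAL shared none with them. DPYSL4 had r = 0.12 and CA11 r = 0.31 with FOXH1 in E18 embryo 1, so their places for FOXH1 rested on the other embryos. The closest genes were at 0.74 for ACVR2B (USP22), 0.63 for GDF3 (ADGRA3), 0.62 for ACVR1B (POLD2), 0.60 for SMAD2 (SPTLC1) and 0.56 for SMAD3 (TSHZ1). The 2 kinds of E20 section enter these values, which are descriptions with no test.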

How the data were processed

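Gene levels were deposited by the authors as TPM, 1 column per region, and per the submitters' processing notes the tools were fastp, HISAT2 and StringTie, without versions. The sources used here do not name the genome build or annotation. Column sums ran from 495550 to 777990, so the table holds part of the genes normalized over. Levels were taken as log2(TPM + 1). The genes that reached 1 TPM in 10 or more regions entered tests with limma 3.58.1 (R 4.3.3, eBayes with a trend), with Benjamini-Hochberg adjustment over all genes at 0.05. The stage comparison used embryo means. Section and sector models used regions, with embryo or section as a block, and the labels do not say that regions are independent, so their p-values measure spread within 3 embryos and are too small. The models were tested on simulated data. All 8 members are named, with called genes of a 28-gene pathway list (up to 6 per direction, and the rest named after their values were seen), and 5 genes most like each member. Members and lists were chosen with earlier results of these data known. Alternatives were a pseudocount of 0.1, other filters, quantile normalization, no mitochondrial genes, other units and samples. Results of 1 gene of that list are not reported here. RefSeq matched 7 of the 8 members and was used for neighbours only.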

Additional observations from a re-analysis of the deposited data

Results flagged for a closer look

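The slope along the section numbers differed between the 3 embryos for ACVR2B (F test, limma adjusted p = 0.00234), with 3.52 at E20, 0.01 in E18 embryo 1 and 0.26 in E18 embryo 2. It also differed for FOXH1 (adjusted p = 0.00304), with 5.23 at E20, 0.68 in E18 embryo 1 and 1.56 in E18 embryo 2. For ACVR2B both E18 slopes were smaller than the SE of 0.38 of the slope over all 3 embryos. In both genes the slope was steepest in E20. The E20 sections 1 to 5 held yolk sac endoderm markers at a median level of 9.83 and sections 6 and 7 at 0.551. The part of that split in the slopes was not tested.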

How the results depend on the processing

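For the stage, 1734 genes and 3 of the 8 were called. Without mitochondrial genes 857 were called. Sections 1 to 5 as the only E20 sections, chosen after seeing the data, gave 2970. Sections 6 and 7 only gave 6 genes and 0 of the 8 (0 at an unadjusted p under 0.05). With medians over regions limma called 0 genes (2021 at an unadjusted p under 0.05) and 0 of the 8 (3 at that p). After quantile normalization 796 genes were higher and 679 lower, in place of 402 and 1332. Along sections 1628 genes and 4 of the 8 were called. Section means gave 27 and 1, separate E20 blocks 6 and 0, a covariate for how many genes a region had at 1 TPM 502 genes, with TDGF1 no longer called (limma adjusted p = 0.0563), and the slopes of the 3 embryos tested against 0 gave 0 and 0 (638 genes at an unadjusted p under 0.05). Leaving out 1 embryo gave 9 to 2411 genes and 0 to 4 of the 8, both lowest without E20. After quantile normalization 852 rose and 500 fell, in place of 1341 and 287. Across sectors 493 genes and 1 of the 8 were called. A pseudocount of 0.1 gave 253 and 0, the slopes of the 3 embryos 0 and 0 (882 genes at an unadjusted p under 0.05), sector numbers as given 325 genes, and leaving out E20 sections 1 to 5, chosen after seeing the data, 1249. Leaving out 1 embryo gave 0 to 1129 genes and 0 to 1 of the 8, both lowest without E18 embryo 2 (1116 genes at an unadjusted p under 0.05). Leaving out single regions, also chosen after seeing the data, gave 0 to 1 for the sectors, 4 for the sections and 3 to 4 for the stage. The sector slopes of 73 genes differed between embryos, of 22 with a pseudocount of 0.1, 37 with a stricter filter and 164 after quantile normalization.

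Values that did not pass the test changed sign as follows. For the stage, SMAD2 was 0.054 and SMAD3 0.27 after quantile normalization, and GDF3 was 0.46 and SMAD2 0.25 with E20 sections 6 and 7 only. Leaving out 1 region gave -0.22 to 0.039 for SMAD2, and leaving out 1 E18 embryo -0.24 to 0.066. Along sections, ACVR1B was -0.23 after quantile normalization, -0.065 as 3 slopes, -0.081 with the covariate and -0.29 with separate blocks, and SMAD3 was -0.32 after quantile normalization, -0.034 with the covariate and -0.0205 with section means. Leaving out 1 embryo gave -0.47 to 0.50 for ACVR1B, and leaving out 1 region -0.094 to 0.24 for SMAD3. Across sectors, NODAL was 0.22 and ACVR1B 0.24 with a pseudocount of 0.1. ACVR1B was 0.10 as 3 slopes and 0.025 with sector numbers as given, and ACVR2B 0.023 without E20 sections 1 to 5. Leaving out 1 embryo gave -0.29 to 0.11 for NODAL, -0.21 to 0.38 for ACVR1B and -1.09 to 0.13 for GDF3, and leaving out 1 region -0.38 to 0.10 for NODAL and -0.10 to 0.11 for ACVR1B. The cause was not tested. The calls for section slopes between embryos (ACVR2B and FOXH1) held under each of the 5 alternatives run for them. No paired analysis was possible, because replicate numbers count embryos within a stage and pair no embryos between stages. TPM keeps no depth, so a gene listed at 0 may have been present below detection.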

Other observations

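DPPA3, a gene of germ cells and early embryos, is the neighbour of GDF3 in RefSeq's annotation. It had a median of 10.03 TPM in E20 sections 1 to 5, 0 TPM in sections 6 and 7 (highest 4.42), 4.48 TPM in E18 embryo 1 and 0 TPM in E18 embryo 2. Its correlation with GDF3 was 0.54 in E20 sections 1 to 5 (n = 28), 0.10 in sections 6 and 7 (n = 8), 0.66 in E18 embryo 1 and 0.07 in E18 embryo 2. APOBEC1, the neighbour on the other side, had a median of 0 TPM in all 3 embryos. PCSK6, a convertase that cleaves ligands of this family, had medians of 10.4 TPM in E20 sections 1 to 5, 1.12 TPM in sections 6 and 7, 0.660 TPM in E18 embryo 1 and 2.23 TPM in E18 embryo 2, and did not pass for the stage (1.19 ± 0.78, limma adjusted p = 0.408). These genes were chosen after their values were seen.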
